A study of Mus musculus with 2 samples.

Results

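The Cxcr3 and Cxcr6 chemokine axis was followed through 5 genes, the ligands Cxcl9, Cxcl10 and Cxcl16 and the receptors Cxcr3 and Cxcr6, in leukocytes of a transplanted mouse melanoma. The 5 genes were taken by symbol from the 27998 genes that the deposited matrices list, and all 5 were found. The rule names the genes and uses no measured value, though earlier results of these data were known when they were chosen, and no cell was assigned to a class by their levels.

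Chemokines are small secreted proteins that bind G protein-coupled receptors and direct the movement of leukocytes. Cxcl9 and Cxcl10 are made after exposure to interferon-gamma, which acts through the kinases Jak1 and Jak2 and the transcription factor Irf1, and both bind Cxcr3, a receptor of activated T cells and NK cells. Cxcl16 is made as a membrane-bound chemokine that the protease Adam10 can release, and it binds Cxcr6, a receptor of effector and tissue-resident T cells. In tumours these ligands are known for drawing in and positioning T cells.

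The cells were CD45+ leukocytes sorted from B16 melanomas of C57BL/6 mice, taken at day 14 after the tumour cells were inoculated. The control group, Foxp3Cre-YFP, carries a Cre recombinase fused to a yellow fluorescent protein and driven by Foxp3, the gene that defines regulatory T cells. The other group, Nrp1L/LFoxp3Cre-YFP, carries the same Cre and floxed alleles of Nrp1, a co-receptor found on regulatory T cells, so that Nrp1 is targeted in Foxp3-expressing cells. All mice were female and 5 weeks old, and 2600 cells were loaded for each library with 14 cycles of cDNA amplification. There was 1 library per genotype, and how many mice each library pooled is not given in the labels. With 1 library per genotype no test of genotype was possible, so every interval below is a 95% interval for counting error only, and genotype and library cannot be told apart.

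The control library held 1310 barcodes and 13042802 UMIs (unique molecular identifiers, which count captured transcripts), and the Nrp1L/L library held 1301 barcodes and 8978610 UMIs. The median barcode had 8079.5 and 5334 UMIs, and 3 barcode sequences occurred in both. After likely doublets were left out, 1302 and 1275 cells remained. Cells were sorted into 6 exclusive gates: CD8 T cells (236 control and 393 Nrp1L/L cells), other cells with CD3 transcripts (201 and 358), NK cells (89 and 208), macrophages with C1q transcripts (268 and 86), monocytes with Lyz2 but little C1q (305 and 116) and dendritic cells with Cd209a or Flt3 (62 and 29). Cells with both lymphoid and myeloid gate genes (21 and 17, called mixed) and cells in no gate (120 and 68) were left out of the comparisons. Of 12 T cell marker genes 9 were matched to a row, and all 9 were detected in CD8 T and other CD3 cells of each library, at summed levels of 2269 to 3565 UMIs per 1000000 (CPM) against 20.9 to 70.1 CPM in macrophages and monocytes. The 10 macrophage marker genes summed to 9342 CPM in the control macrophage gate and 5908 CPM in the Nrp1L/L one, and to 4803 and 3608 CPM in the monocyte gate, so that gate shared macrophage transcripts. Nrp1 itself stood at 49.1 CPM (35.5 to 66.1, 43 UMIs) in the control cells of a Treg-like gate and at 31.7 CPM (20.1 to 47.5, 23 UMIs) in the Nrp1L/L ones, and these intervals overlap. A 3' tag can lie outside the deleted part of Nrp1, so this is no check of the deletion.

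Cxcl9 (ENSMUSG00000029417) lies on chromosome 5 at 92321347 to 92328079 and Cxcl10 (ENSMUSG00000034855) at 92346638 to 92348889, both on the minus strand (GRCm38, GENCODE M21). The interval between the neighbouring genes measures 18558 bases and holds 0 other annotated genes in full. Cxcl16 (ENSMUSG00000018920) lies on chromosome 11 at 70453983 to 70459984 on the minus strand. Cxcr3 (ENSMUSG00000050232) lies on chromosome X at 101731535 to 101734269 on the minus strand, and Cxcr6 (ENSMUSG00000048521) on chromosome 9 at 123806475 to 123811760 on the plus strand. Because Cxcl9 and Cxcl10 were both higher in Nrp1L/L macrophages and monocytes, the 250 bases before the start of each are shown 5′ to 3′ from RefSeq (GRCm38.p6, minus strand, chr5:92328080-92328329 for Cxcl9 and chr5:92348890-92349139 for Cxcl10), with motif matches in capitals.
Cxcl9: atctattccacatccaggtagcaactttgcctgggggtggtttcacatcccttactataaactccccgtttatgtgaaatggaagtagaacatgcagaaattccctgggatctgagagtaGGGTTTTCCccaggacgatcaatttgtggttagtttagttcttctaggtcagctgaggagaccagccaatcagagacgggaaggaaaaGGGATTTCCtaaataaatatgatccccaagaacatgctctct
Cxcl10: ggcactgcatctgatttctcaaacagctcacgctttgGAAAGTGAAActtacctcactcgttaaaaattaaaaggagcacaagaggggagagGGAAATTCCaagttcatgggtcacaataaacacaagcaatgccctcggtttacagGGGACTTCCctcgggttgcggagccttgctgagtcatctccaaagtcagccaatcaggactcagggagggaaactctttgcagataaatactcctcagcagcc

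The motifs searched on both strands were GAAANNGAAA (an interferon-stimulated response element), TTCNNNGAA (a gamma-activated site) and GGNNNTTCC (an NF-kappa-B-like site). Their letters were set with these promoters in view. In the Cxcl10 window GAAANNGAAA matched at bases -213 to -204 from the start, as GAAAGTGAAA, and 2.98% of 32851 mouse promoter windows of the same length held this motif. GGNNNTTCC matched at 2 places in each window, at -130 to -122 and -42 to -34 in Cxcl9 and at -158 to -150 and -103 to -95 in Cxcl10. At least 1 such match was present in 15.7% of all windows and at least 2 in 1.46%. TTCNNNGAA had no match in either window and was present in 7.02% of all windows, and none of the 3 motifs matched in the same window of Cxcr3 or Cxcr6. No match overlapped a match of another motif. The match is of letters only and was not compared with protein binding.

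Cxcl9 was made by myeloid cells in each library, and its level was several times higher in the Nrp1L/L myeloid cells. In macrophages it stood at 88.1 CPM (78.0 to 99.1, 275 UMIs) in control and 380.4 CPM (339 to 425, 310 UMIs) in Nrp1L/L cells, for a log2 ratio of 2.11 (1.87 to 2.35). In monocytes it stood at 51.0 CPM (42.3 to 60.8, 122 UMIs) and 631 CPM (580.5 to 685, 576 UMIs), for a log2 ratio of 3.63 (3.35 to 3.92) or 12.4-fold. Monocytes thus had the larger ratio, and their order with macrophages turned in the summed levels. Macrophages were 1.73-fold above monocytes in the control (log2 0.79, 0.48 to 1.11), while monocytes were 1.66-fold above macrophages among Nrp1L/L cells (log2 0.73, 0.53 to 0.93). The control order leaned on a single macrophage, which held 106 of the 275 UMIs, and was not tested without it. Cxcl9 was detected in 13.8% of control macrophages and 7.54% of control monocytes. With every cell thinned to the same depth these shares were close, at 4.85% and 4.26%. The dendritic gate came next in each library, at 30.1 CPM (20 UMIs) and 161 CPM (45 UMIs), for a log2 ratio of 2.42 (1.63 to 3.26).

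Few cells carried most of the Cxcl9. It was detected in 37 of 268 control and 31 of 86 Nrp1L/L macrophages, and in 23 of 305 and 43 of 116 monocytes. After each cell was thinned to 2500 UMIs, to set the libraries at 1 depth, the shares were 4.85% and 25.6% of macrophages and 4.26% and 31.9% of monocytes. CD8 T cells, which should lack the gene, had a Cxcl9 UMI in 3 of 236 and 7 of 393 cells at full depth, with a median of 10846 and 6578 UMIs against 10605 and 8571 in macrophages. A single control macrophage held 106 of the 275 macrophage UMIs, and without the highest cell of each library the macrophage log2 ratio was 2.64. The highest 10% of cells held 95.6% of the macrophage Cxcl9 UMIs in control and 67.1% in Nrp1L/L cells, and 100% and 70.3% of the monocyte ones. Detection was therefore more frequent as well as the sum higher in the Nrp1L/L myeloid cells.

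Lymphocytes added little Cxcl9. CD8 T cells stood at 6.38 and 3.21 CPM, other CD3 cells at 4.71 and 6.75 CPM and NK cells at 10.4 and 0.995 CPM, from 1 to 19 UMIs each. Of the 19 control UMIs in CD8 T cells 17 came from 1 cell, and the CD8 T cell log2 ratio of -0.99 (-2.21 to 0.16) turned to 1.80 without the highest cell of each library. The neighbours in this order, NK, CD8 T and other CD3 cells, had ratios to each other whose intervals included 0 in each library. Over all kept cells, macrophages, monocytes and dendritic cells held 83.7% of the Cxcl9 UMIs in control and 82.3% in Nrp1L/L cells. The macrophage share went from 55.2% to 27.4% between the libraries as macrophages went from 20.6% to 6.75% of cells, and the monocyte share went from 24.5% to 50.9% although monocytes went from 23.4% to 9.10% of cells.

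**Figure D1:**
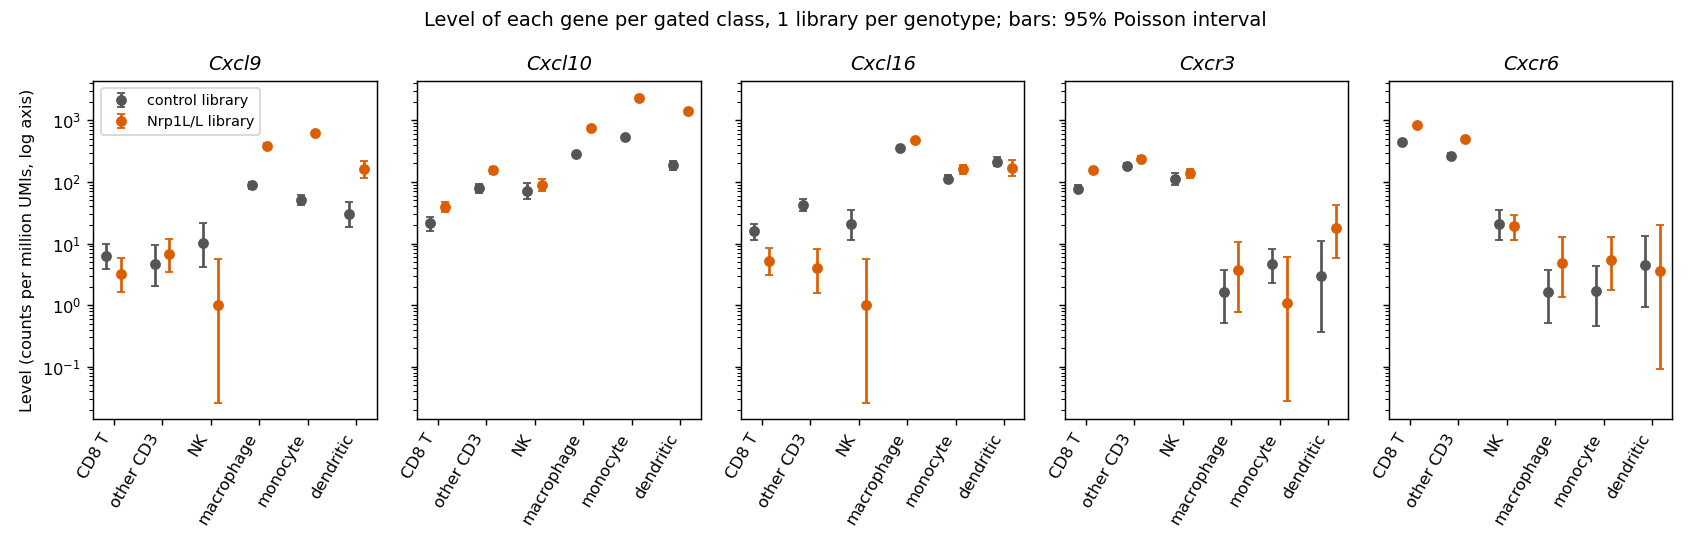
Level of each of the 5 genes in 6 gated classes, in CPM of summed counts on a log axis, for the control and the Nrp1L/L library (1 library each; bars are 95% Poisson intervals for counting error). The 3 ligands sit high in macrophages, monocytes and dendritic cells and the 2 receptors in CD8 T and other CD3 cells, with Cxcr3 but little Cxcr6 in NK cells.

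Cxcl10 was highest in monocytes of each library. Monocytes stood at 529 CPM (500.5 to 559, 1267 UMIs) in control and 2352 CPM (2254 to 2454, 2147 UMIs) in Nrp1L/L cells, for a log2 ratio of 2.15 (2.05 to 2.25). Macrophages stood at 281 CPM (263 to 301, 879 UMIs) and 759 CPM (701 to 822, 619 UMIs), for a log2 ratio of 1.43 (1.28 to 1.58). Both ratios lay above 1.5-fold, the size used here to call a difference. Monocytes were 1.88-fold above macrophages in control and 3.10-fold above them in Nrp1L/L cells.

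Cxcl10 was detected in 75 of 305 control and 60 of 116 Nrp1L/L monocytes, and in 78 of 268 and 42 of 86 macrophages. At 2500 UMIs per cell these shares were 16.4% and 42.2% of monocytes and 16.0% and 31.4% of macrophages. The median monocyte went from 0 to 0.969 UMIs per 10000 and the upper quartile from 0 to 32.6, so at least 3 in 4 control monocytes had no Cxcl10 UMI. The highest 10% of monocytes held 93.6% of their Cxcl10 UMIs in control and 60.5% in Nrp1L/L cells. As for Cxcl9, the transcript was found in a larger share of the Nrp1L/L cells of each gate, although these gates held fewer cells.

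**Figure D2:**
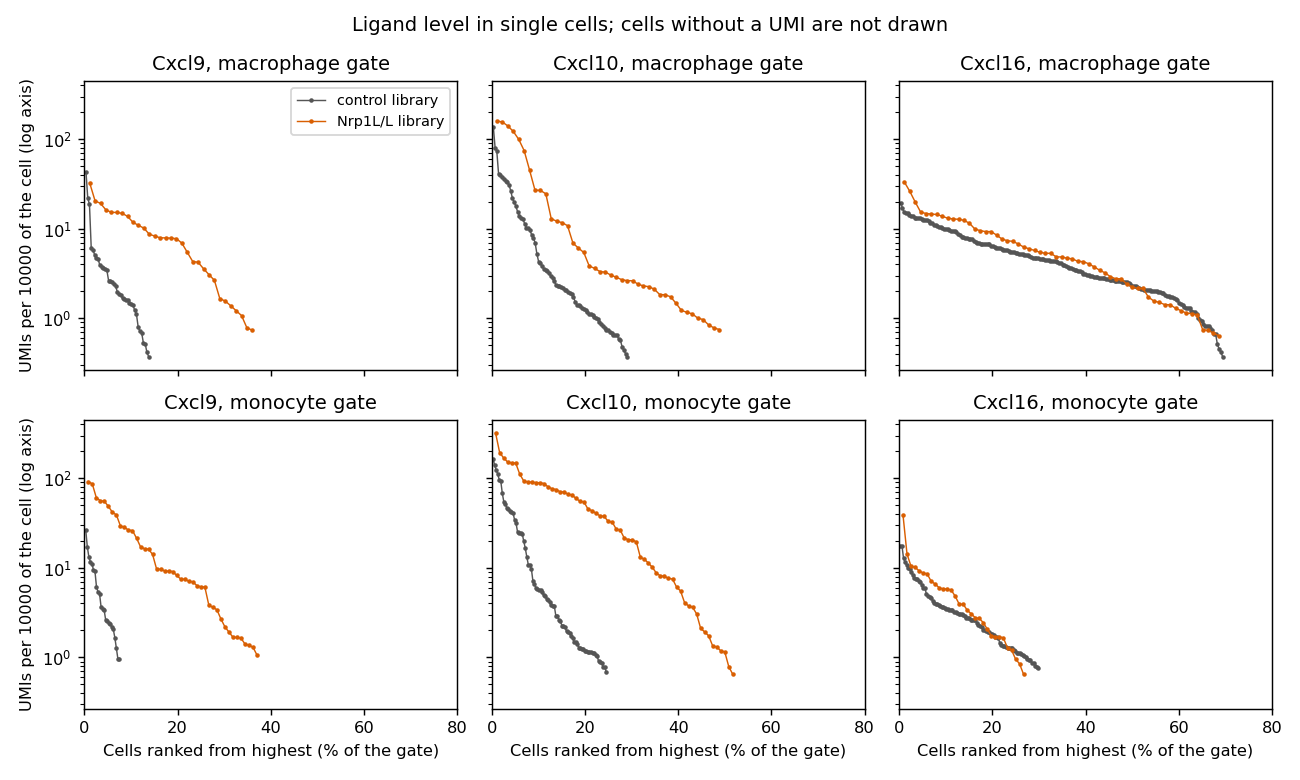
UMIs of Cxcl9, Cxcl10 and Cxcl16 per 10000 UMIs of a cell (vertical axis) in macrophages and monocytes ranked from the highest (horizontal axis, percent of the gate), for each library. The curves of Cxcl9 and Cxcl10 reach further right in the Nrp1L/L library, where 10% of the monocytes hold 60.5% of the Cxcl10 UMIs against 93.6% in the control.

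In the macrophage gate Cxcl9 and Cxcl10, 2 of the 3 ligands, passed 1.5-fold upward and 0 passed downward, where 14.2% of the 7852 genes with at least 20 UMIs passed upward and 24.4% downward. In monocytes it was the same 2 of 3 upward and 0 downward, against 16.1% and 18.7% of 7000 genes. The median log2 ratio of all tested genes was -0.12 in macrophages and -0.0074 in monocytes. In monocytes split by Ly6c2, a marker of classical monocytes, Cxcl9 went from 60.6 to 624 CPM and Cxcl10 from 579 to 2469 CPM among cells with at least 2 Ly6c2 UMIs (241 and 105 cells). Among the 64 and 11 monocytes below that limit, Cxcl9 went from 12.5 to 697 CPM and Cxcl10 from 332 to 1189 CPM. Both ligands were thus higher in each Ly6c2 group of the Nrp1L/L library. Without cycling macrophages (29 control and 2 Nrp1L/L cells) Cxcl9 went from 99.2 to 344 CPM and Cxcl10 from 322 to 776 CPM. In the control the cycling macrophages were 3.48-fold lower in summed Cxcl9 and 4.94-fold lower in summed Cxcl10 than the other macrophages, while the 2 cycling Nrp1L/L macrophages held 39 of the 310 Cxcl9 UMIs. A single cell held 106 of the 261 Cxcl9 UMIs of the other control macrophages. Cxcl9 was detected in 17.2% of the cycling and 13.4% of the other control macrophages, and after thinning in 6.897% and 4.603%. Its lower level in cycling cells thus lay in the sum and not in detection. For Cxcl10 the shares were 31.03% and 28.9% at full depth and 6.897% and 17.2% after thinning.

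The dendritic gate had the largest Cxcl10 ratio, from 186 CPM (124 UMIs) to 1409 CPM (394 UMIs), for a log2 ratio of 2.92 (2.62 to 3.22), but this value rested on which cells the gate held. Cxcl9 and Cxcl10 passed 1.5-fold upward in this gate, 2 of 3 ligands, with 0 downward, against 23.6% of 4478 genes upward and 21.8% downward. Lyz2, the gate gene of monocytes, stood at 2832 CPM in the control dendritic gate and 23654 CPM in the Nrp1L/L one. Zbtb46, a transcription factor of conventional dendritic cells, had 19 UMIs in that control gate and 1 UMI in the Nrp1L/L gate, while Cd209a stood at 1045 and 1674 CPM and Flt3 at 81.2 and 104 CPM. All 10 dendritic cell marker genes were detected in each, with sums of 2093 and 2822 CPM. The list holds the gate genes Cd209a and Flt3, so these sums cannot show that the gates held the same kind of cell. Among its other genes Xcr1 stood at 33.1 and 21.5 CPM and Clec9a at 31.6 and 10.7 CPM. Ccr7 stood at 299 and 393 CPM and Fscn1 at 241 and 329 CPM, found in 3 and 1 of the 29 Nrp1L/L cells. Cells with at least 10 Lyz2 UMIs numbered 15 of the 62 in the control gate and 18 of the 29 in the other. In those cells Cxcl10 went from 81.7 to 2322 CPM, and they held 377 of the 394 Nrp1L/L UMIs. In the other 47 and 11 cells Cxcl10 stood at 219 and 145 CPM, for a log2 ratio of -0.60. These 2 levels rested on single cells, which held 57 of the 111 control UMIs and 14 of the 17 Nrp1L/L ones. Detection there went the other way, with Cxcl10 in 6 of 47 control and 3 of 11 Nrp1L/L cells, as did the level at 2500 UMIs per cell, 247 and 327 CPM. Cxcl9 in the cells with little Lyz2 stood at 31.6 CPM (16 UMIs, 18.1 to 51.4) and 281.5 CPM (33 UMIs, 194 to 395). In the Lyz2-rich cells it stood at 25.1 CPM (4 UMIs, all in 1 cell) and 73.9 CPM (12 UMIs), with overlapping intervals (6.85 to 64.4 and 38.2 to 129). The higher Cxcl10 sum of the Nrp1L/L dendritic gate thus lay in its Lyz2-rich cells, and no direction could be read in the others.

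Lymphocytes held 8.68% of all control Cxcl10 UMIs and 12.6% of the Nrp1L/L ones, where for Cxcl9 they held 6.83% and 2.12%. CD8 T cells stood at 21.2 CPM (63 UMIs) in control and 39.4 CPM (135 UMIs) in Nrp1L/L cells, for a log2 ratio of 0.90 (0.46 to 1.35). Other CD3 cells stood at 78.4 CPM (133 UMIs) and 154 CPM (274 UMIs), for a log2 ratio of 0.98 (0.67 to 1.29), and NK cells at 72.5 and 89.6 CPM, for a log2 ratio of 0.31 (-0.21 to 0.84). Single cells weighed on these sums. In the Nrp1L/L library 1 cell held 90 of the 274 UMIs of other CD3 cells, and 1 control NK cell held 35 of 49. At 2500 UMIs per cell the share of cells with Cxcl10 went from 4.66% to 6.11% in CD8 T cells and from 8.96% to 10.6% in other CD3 cells. The log2 ratio of other CD3 cells was then 0.27, and it was 0.39 with each cell weighted equally and 0.40 without cycling cells, all below 1.5-fold. The NK ratio was 1.90 without the highest cell of each library and -1.25 with mixed cells counted in. For each 100 Lyz2 UMIs found in the same gate, lymphoid gates had 24.6 to 201.5 Cxcl10 UMIs and macrophages and monocytes 2.27 to 11.3. Lymphoid cells were gated to fewer than 10 Lyz2 UMIs, and the part of transcripts from other cells was not tested.

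Cxcl16 had another distribution: it was broad in macrophages and differed less between the libraries there. Macrophages stood at 361 CPM (340 to 383, 1127 UMIs) in control and 477 CPM (431 to 527, 389 UMIs) in Nrp1L/L cells, for a log2 ratio of 0.40 (0.23 to 0.57). Monocytes stood at 113 CPM (271 UMIs) and 161 CPM (147 UMIs), for a log2 ratio of 0.51 (0.21 to 0.80). Both intervals lay above 0 and both ratios below 1.5-fold. With gates set on thinned counts the monocyte ratio was 0.057. Macrophages were 3.19-fold above monocytes in control and 2.96-fold in Nrp1L/L cells.

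Most macrophages had Cxcl16, 186 of 268 in control and 59 of 86 in Nrp1L/L cells, against 91 of 305 and 31 of 116 monocytes. At 2500 UMIs per cell the macrophage shares were 41.8% and 44.2%. The highest 10% of macrophages held 38.5% and 44.7% of the UMIs, far less than for Cxcl9 or Cxcl10, and the median macrophage had 2.32 and 2.20 UMIs per 10000. Cycling and other control macrophages stood at 368 and 359.5 CPM, so Cxcl16 lacked the difference in summed level with cycling that Cxcl9 and Cxcl10 had there. For Cxcl9 that difference leaned on a single cell and was not seen in detection.

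Over whole libraries the direction of Cxcl16 was the opposite, with 154 CPM in control and 89.7 CPM in Nrp1L/L cells, for a log2 ratio of -0.78 (-0.90 to -0.66). The macrophage gate, which held 56.7% and 49.4% of all Cxcl16 UMIs, made up a smaller part of the Nrp1L/L cells. In the same sums Cxcl9 went from 38.6 to 129 CPM and Cxcl10 from 218 to 452 CPM, higher in the Nrp1L/L library although it held fewer myeloid cells. Cells outside every gate held 14.9% and 10.9% of the Cxcl16 UMIs, at 291 and 241 CPM. In these cells the macrophage marker genes summed to 2200 and 1278 CPM and the dendritic cell ones to 2014 and 1074 CPM. Their melanoma marker genes summed to 900.3 CPM in the control and had 0 UMIs in the Nrp1L/L library. Which kind of ungated cell carried the Cxcl16 was not tested.

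**Figure D3:**
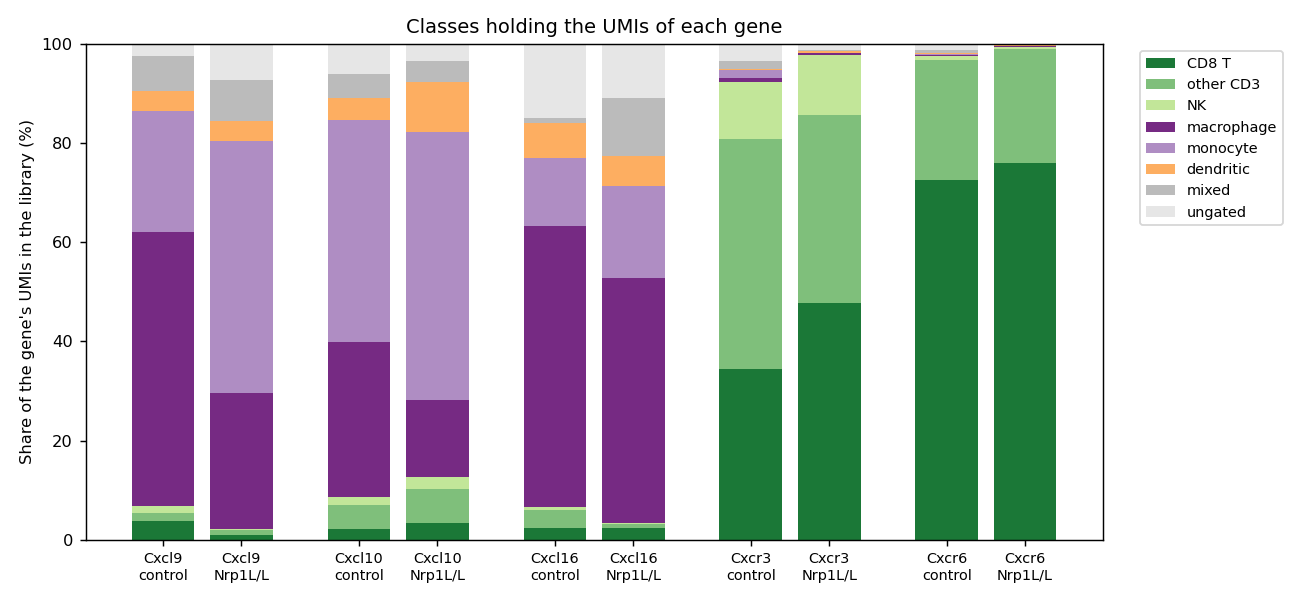
Share of all UMIs of each gene (percent, stacked to 100) held by each gated class, by mixed cells and by cells in no gate, in the control and the Nrp1L/L library. Macrophages hold 55.2% of Cxcl9 in control and 27.4% in Nrp1L/L cells, and CD8 T cells hold 72.5% and 76.1% of Cxcr6.

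In the dendritic gate Cxcl16 stood at 212 CPM (141 UMIs, 25 of 62 cells) in control and 168 CPM (47 UMIs, 4 of 29 cells) in Nrp1L/L cells, for a log2 ratio of -0.34 (-0.84 to 0.15). Within the gate the values went in different directions. Cells with Cd209a and none of the other dendritic sub-gates (40 and 20 cells) had 86 Cxcl16 UMIs among control cells (204 CPM) and 0 among Nrp1L/L cells, at least 12.5-fold lower against a floor of 3 counts in the Nrp1L/L library. Cells with Xcr1 or Clec9a, genes of cross-presenting dendritic cells, numbered 7 and 3 and had 93.7 CPM (10 UMIs) and 723 CPM (29 UMIs). The gate of Ccr7 and Fscn1, genes of migratory dendritic cells, held 8 control cells at 532 CPM and 1 Nrp1L/L cell at 1649 CPM. Split by Lyz2, the Lyz2-rich cells went from 239 CPM (38 UMIs) to 0 UMIs, and the others from 204 to 401 CPM.

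Lymphocytes had Cxcl16 mainly in the control library. Other CD3 cells stood at 42.4 CPM (72 UMIs in 12 cells) in control and 3.94 CPM (7 UMIs in 5 cells) in Nrp1L/L cells, for a log2 ratio of -3.43 (-4.79 to -2.31). In CD8 T cells the values were 15.8 CPM (47 UMIs) and 5.26 CPM (18 UMIs), for a log2 ratio of -1.59 (-2.46 to -0.77), found in 17 and 5 cells, and in NK cells 14 UMIs and 1 UMI. The dendritic cell marker genes were also lower in the Nrp1L/L cells of these gates. They summed to 376 CPM (10 of 10 detected) in control and 68.1 CPM (5 of 10, with Zbtb46, Xcr1, Clec9a, Ccl22 and Kmo at 0) in Nrp1L/L other CD3 cells, to 175 and 78.0 CPM in CD8 T cells and to 149 and 26.9 CPM in NK cells. That list contains Ccr7, which is also read below in the receptor programme of lymphocytes. In other CD3 cells Ccr7 had 224 of the 638 control and 115 of the 121 Nrp1L/L UMIs of the list. It had 336 of 521 and 214 of 267 in CD8 T cells, and 46 of 101 and 22 of 27 in NK cells. The sums are therefore not a reading of dendritic cell transcripts alone. The macrophage marker genes were lower in the same gates too. They summed to 98.4 and 39.4 CPM in other CD3 cells, 84.9 and 42.6 in CD8 T and 108 and 49.8 in NK cells. The monocyte marker genes summed to more in Nrp1L/L CD8 T cells (3196 and 4991 CPM) and other CD3 cells (2584 and 3422 CPM). In NK cells they summed to 1828 and 1731 CPM. Lyz2, the gate gene of monocytes, was lower in each of these Nrp1L/L gates. It stood at 85.95 and 67.2 CPM in CD8 T, 94.9 and 76.5 in other CD3 and 121 and 72.7 in NK cells. The summed C1q gate genes were lower too, at 46.3 and 26.9, 47.7 and 33.2, and 72.5 and 37.8 CPM. The part of any of these lists or genes in the Cxcl16 values was not tested. Of the 72 control UMIs in other CD3 cells 54 lay in the Treg-like gate defined below, against 1 of the 7 Nrp1L/L ones. When mixed cells were counted with their lymphoid class the log2 ratio of other CD3 cells was 0.22, so the direction there depended on leaving them out.

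The ligands were also read cell by cell. Cxcl9 and Cxcl10 were found together in 12 of 268 control and 19 of 86 Nrp1L/L macrophages, and in 8 of 305 and 26 of 116 monocytes. At 2500 UMIs per cell these were 0.746% and 10.5% of macrophages and 0.328% and 17.2% of monocytes. Among Nrp1L/L macrophages with Cxcl9, 61.3% also had Cxcl10, against 41.8% of those without Cxcl9. In the control these shares were 32.4% and 28.6%. Nrp1L/L monocytes had 60.5% and 46.6%, and control monocytes 34.8% and 23.8%. In each of these 4 sets the cells with Cxcl9 had Cxcl10 more often at full depth, where deeper cells detect more of each gene. After thinning, the control shares were 15.4% and 16.1% in macrophages and 7.69% and 16.8% in monocytes, while the Nrp1L/L ones were 40.9% and 28.1%, and 54.1% and 36.7%. Cells with at least 1 of the 2 ligands made up 29.5% and 66.4% of monocytes and 38.4% and 62.8% of macrophages at full depth.

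Cxcr6 was carried by T cells and by few other cells. CD8 T cells stood at 453 CPM (429 to 477, 1348 UMIs) in control and 851 CPM (821 to 883, 2915 UMIs) in Nrp1L/L cells, for a log2 ratio of 0.91 (0.82 to 1.01). Other CD3 cells stood at 266 CPM (452 UMIs) and 494 CPM (878 UMIs), for a log2 ratio of 0.89 (0.73 to 1.06). NK cells had 14 and 19 UMIs, 20.7 and 18.9 CPM, for a log2 ratio of -0.13 (-1.20 to 0.98). The order was the same in each library: CD8 T cells stood 1.70-fold and 1.72-fold above other CD3 cells and 21.9-fold and 45.0-fold above NK cells. CD8 T and other CD3 cells together held 96.8% and 99.0% of all Cxcr6 UMIs.

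Cxcr6 was detected in 168 of 236 control and 306 of 393 Nrp1L/L CD8 T cells, and in 80 of 201 and 149 of 358 other CD3 cells. At 2500 UMIs per cell it was still found in 118 of the 236 and 244 of the 393 CD8 T cells, in 26.4% and 36.03% of other CD3 cells and in 3.37% and 2.88% of NK cells. Macrophages, which should lack the gene, had it in 0.746% and 1.16% at that depth (5 and 4 UMIs in all, at a median full depth of 10605 and 8571 UMIs against 10846 and 6578 in CD8 T cells). The median CD8 T cell had 2.72 UMIs per 10000 in control and 5.66 in Nrp1L/L cells. The upper quartile went from 7.02 to 13.4. In other CD3 cells the log2 ratio was 0.31 when each cell was weighted equally and 0.34 at 2500 UMIs per cell, below 1.5-fold in each case.

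Cxcr3 was shared among T and NK cells. Other CD3 cells were highest, at 182 CPM (162 to 204, 309 UMIs) in control and 239.7 CPM (217 to 264, 426 UMIs) in Nrp1L/L cells, for a log2 ratio of 0.40 (0.18 to 0.61). CD8 T cells stood at 77.2 CPM (67.6 to 87.9, 230 UMIs) and 157 CPM (144 to 171, 537 UMIs), for a log2 ratio of 1.02 (0.80 to 1.25). NK cells stood at 112 CPM (76 UMIs) and 137 CPM (138 UMIs), for a log2 ratio of 0.29 (-0.12 to 0.71). In the control NK cells stood 1.46-fold above CD8 T cells (log2 0.54, 0.15 to 0.92). In the Nrp1L/L library the interval of that ratio included 0 (log2 of CD8 T over NK 0.19, -0.08 to 0.47). At 2500 UMIs per cell the control levels were close, at 153 CPM in NK and 147 CPM in CD8 T cells. The CD8 T cell ratio was 0.45 at 2500 UMIs per cell, below 1.5-fold, and 0.65 with each cell weighted equally. CD8 T cells, other CD3 cells and NK cells together held 92.3% of Cxcr3 UMIs in control and 97.9% in Nrp1L/L cells.

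Cxcr3 was detected in 79 of 236 control and 185 of 393 Nrp1L/L CD8 T cells, in 92 of 201 and 155 of 358 other CD3 cells and in 31 of 89 and 54 of 208 NK cells. Thinned to 2500 UMIs the shares were 19.9% and 29.5%, 30.3% and 31.3%, and 23.6% and 21.2%. Macrophages had it in 0.373% and 2.33% at that depth, from 5 and 3 UMIs in all. Each of the 3 lymphoid shares was thus above the macrophage share, and of the 3 the difference between libraries was largest in CD8 T cells.

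In CD8 T cells 2 of 2 receptors passed 1.5-fold upward, where 16.7% of 8903 genes did and 13.6% passed downward (16.0% and 15.3% of all genes with at least 1 UMI). In other CD3 cells 1 of 2 did (Cxcr6), against 17.9% of 8012 genes upward and 16.0% downward, and in NK cells 0 of 2, against 23.3% of 6026 genes upward and 12.8% downward. The median log2 ratio of all tested genes was 0.0019, 0.011 and 0.092 in these gates. Of the ligands in these gates, Cxcl10 passed upward in CD8 T and other CD3 cells, Cxcl16 passed downward in both, and Cxcl9 passed downward in CD8 T cells on 30 UMIs in all. The receptors had under 20 UMIs in each myeloid gate and were not compared there.

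**Figure D4:**
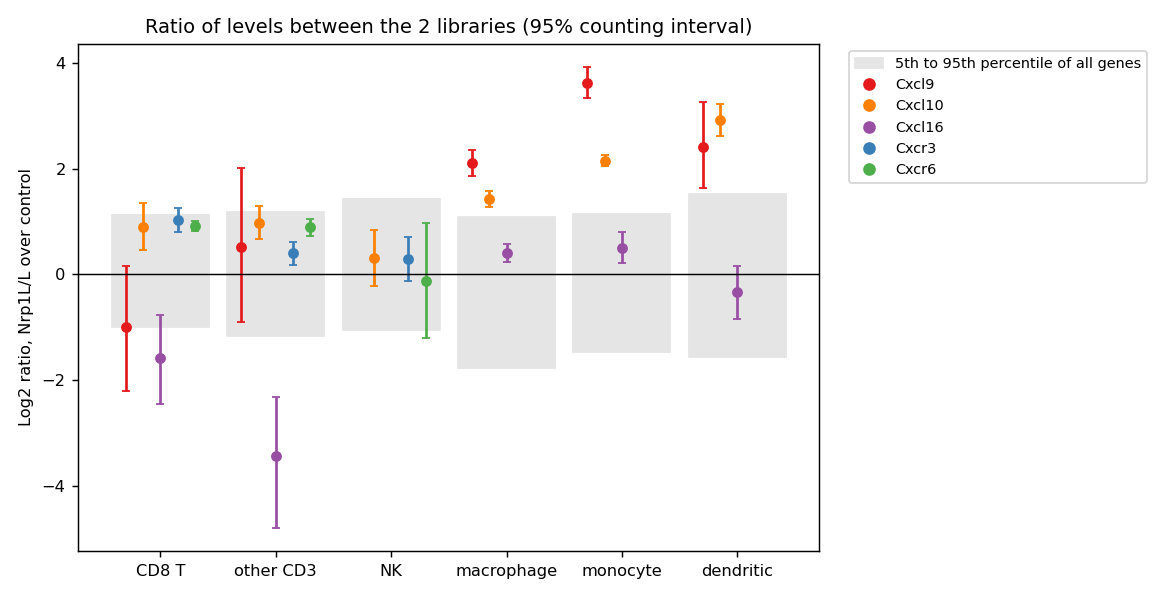
Log2 ratio of each gene, Nrp1L/L over control, in each gated class with its 95% counting interval; the grey span marks the 5th to 95th percentile of all genes with at least 20 UMIs in that class. Cxcl9 and Cxcl10 lie at 1.43 to 3.63 in the 3 myeloid gates, above the span, with Cxcl16 inside it; Cxcr3 and Cxcr6 lie at 1.02 and 0.91 in CD8 T cells, inside the span.

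Cycling CD8 T cells had a lower level of each receptor per UMI of the cell. Those with at least 2 UMIs of Mki67 and Top2a, genes of dividing cells, were 75 of 236 control cells (31.8%) and 75 of 393 Nrp1L/L cells (19.1%). Cxcr6 stood at 326 and 575 CPM in the cycling cells and at 590.0 and 1012 CPM in the others. Cxcr3 stood at 39.4 and 86.8 CPM in the cycling cells and at 118 and 197 CPM in the others. The cycling cells were thus 1.81-fold and 1.76-fold lower in Cxcr6 and 2.998-fold and 2.27-fold lower in Cxcr3 on the CPM scale. They were also deeper, with a median of 18843 and 15640 UMIs against 6905 and 5984.5, and at full depth had Cxcr6 more often, in 82.7% and 89.3% against 65.8% and 75.2% of the others. At 2500 UMIs per cell Cxcr6 was found in 33 of 75 and 46 of 75 cycling cells and in 52.8% and 62.3% of the others, and Cxcr3 in 7 of 75 and 15 of 75 against 24.8% and 31.8%. The lower share of cycling cells at that depth was thus plain for Cxcr3 and small for Cxcr6. Within both sets of cells the Nrp1L/L library had more of each receptor: log2 0.82 (0.65 to 0.99) in cycling and 0.78 (0.66 to 0.89) in other CD8 T cells for Cxcr6, and 1.14 (0.67 to 1.62) and 0.74 (0.48 to 1.01) for Cxcr3. Leaving cycling cells out lowered the Cxcr3 ratio of the gate from 1.02 to that 0.74.

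The other CD3 cells were split by genes of CD4 lineages. The Treg-like gate, which required at least 2 UMIs of Il2ra, Ikzf2 and Foxp3 together, held 92 and 126 cells. Foxp3 gave only 3 and 5 of the UMIs in it, and activated cells of other lineages can also carry Il2ra, so the gate is wider than regulatory T cells. In it Cxcr6 went from 171 to 351 CPM (log2 1.04, 0.74 to 1.34) and Cxcr3 from 133 to 213 CPM (log2 0.68, 0.32 to 1.04). Among the remaining cells with Cd4 (29 and 67), Cxcr6 went from 442 to 777 CPM (log2 0.81, 0.50 to 1.13), while Cxcr3 went from 345 to 256 CPM (log2 -0.43, -0.85 to -0.0018), the only sub-gate of T cells where it was lower. In the rest (80 and 165 cells) Cxcr6 went from 332 to 488 CPM (log2 0.55) and Cxcr3 from 181 to 259 CPM (log2 0.52). Cxcr6 was thus higher in the Nrp1L/L library in all 3 sub-gates, and each library had its highest Cxcr6 level of the 3 in the Cd4 gate. In NK cells the cycling ones (6 and 12 cells) had 1 and 11 Cxcr6 UMIs and the others 13 and 8. Cycling Nrp1L/L NK cells thus stood 10.7-fold above the others (log2 3.42, 1.97 to 4.94), on these few UMIs. In the control the ratio had the opposite sign, with an interval that included 0 (log2 -1.70, -7.10 to 1.04).

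**Figure D5:**
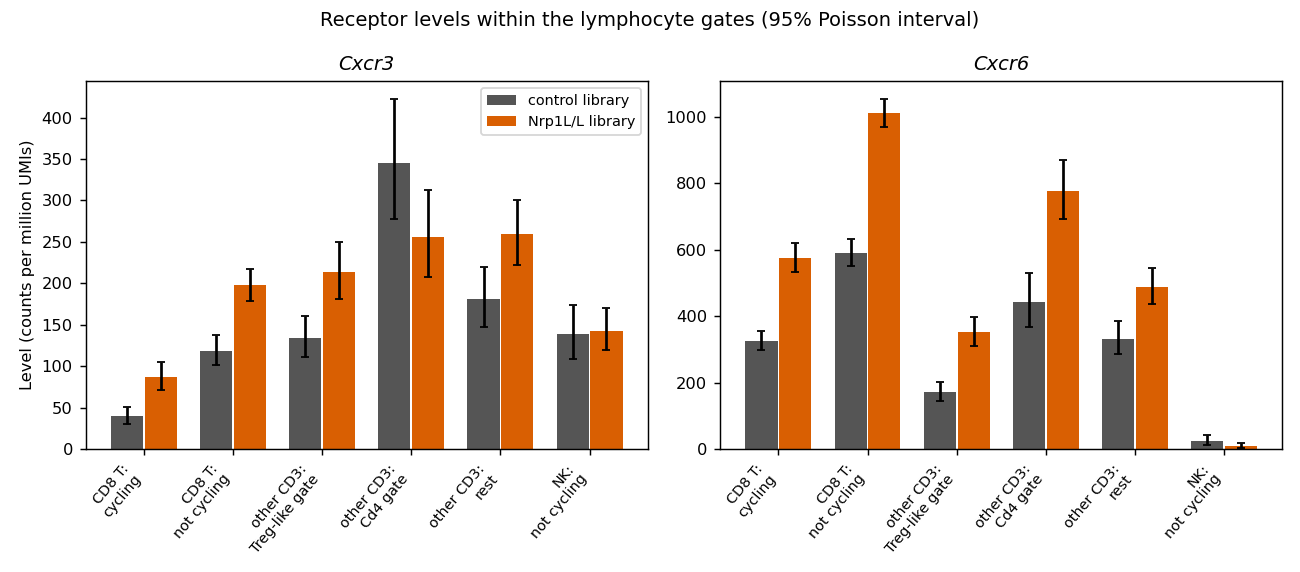
Level of Cxcr3 and Cxcr6 (CPM, bars from 0 with 95% Poisson intervals for counting error) in cycling and other CD8 T cells, in 3 sub-gates of other CD3 cells and in NK cells that were not cycling, for each library. Cxcr6 is highest in CD8 T cells that were not cycling, at 590.0 CPM in control and 1012 CPM in Nrp1L/L cells.

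The 2 receptors were partly on the same cells. Both were found in 53 of 236 control CD8 T cells (22.5%) and 141 of 393 Nrp1L/L ones (35.9%), and at 2500 UMIs per cell in 9.32% and 18.1%. Cells with at least 1 of the 2 made up 82.2% and 89.1%. Cxcr6 was found in 67.1% of control CD8 T cells with Cxcr3 and 73.2% of those without it, and in 76.2% and 79.3% in the Nrp1L/L library. A CD8 T cell with Cxcr3 thus had Cxcr6 no more often than one without. In other CD3 cells 40 of 201 and 68 of 358 had both (19.9% and 19.0%), and in NK cells 3 of 89 and 5 of 208.

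Genes known to act upstream of Cxcl9 and Cxcl10 were read from a list of 13. Ifng, which encodes interferon-gamma, went from 256 to 623 CPM in CD8 T cells (log2 1.28), from 105 to 382 CPM in other CD3 cells (log2 1.86) and from 143 to 249 CPM in NK cells (log2 0.80). On the receiving side, Irf1 went from 86.1 to 218 CPM in macrophages and from 117 to 297 CPM in monocytes, and Socs1, an interferon-induced inhibitor of Jak kinases, from 32.7 to 146 CPM and from 42.2 to 169.8 CPM. Each of these stood higher in the Nrp1L/L library, as did Jak2 (log2 1.10 and 1.36). The receptor chains Ifngr1 and Ifngr2 differed little in macrophages, with log2 ratios of 0.14 and 0.15. Nfkbia, an inhibitor of NF-kappa-B, went the other way, from 1754 to 1076 CPM in monocytes (log2 -0.71).

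Over that list 5 of 12 measured genes passed 1.5-fold upward in macrophages and 0 downward, with a median log2 ratio of 0.47, and 5 of 12 upward and 1 downward in monocytes, with a median of 0.43. In the dendritic gate 5 of 12 passed upward and 1 downward (median 0.49), in CD8 T cells 4 of 13 and 1 (0.30), in other CD3 cells 5 of 13 and 2 (0.51) and in NK cells 4 of 10 and 0 (0.35). Of all tested genes 14.2% passed upward and 24.4% downward in macrophages, 16.1% and 18.7% in monocytes and 23.6% and 21.8% in the dendritic gate. In CD8 T cells the shares were 16.7% and 13.6%, in other CD3 cells 17.9% and 16.0% and in NK cells 23.3% and 12.8%. The all-gene medians given above ran from -0.12 to 0.092 in the gates of macrophages, monocytes and lymphocytes, and the dendritic one was 0.015. Irf1 was among the genes passing upward in 5 of the 6 gates, all but CD8 T cells. Earlier results of these data were known when the list was made.

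Genes that process or resemble the ligands gave little. Adam10 and Adam17, proteases that release Cxcl16, stood at 16.7 and 17.2 CPM and at 31.4 and 40.5 CPM in macrophages of the 2 libraries, and Adam10 at 17.1 and 9.86 CPM in monocytes (log2 -0.80, -2.02 to 0.27). Dpp4, a protease that truncates Cxcl9 and Cxcl10, went from 16.8 to 29.5 CPM in CD8 T cells (log2 0.81, 0.31 to 1.33). Cxcl11, another Cxcr3 ligand, was not analysed here.

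The lists around the receptors are read against all tested genes, of which 16.7% passed upward and 13.6% downward in CD8 T cells, 17.9% and 16.0% in other CD3 cells and 23.3% and 12.8% in NK cells. Of 10 genes of G protein signalling measured in CD8 T cells 1 passed upward (Arrb1, an arrestin, 2.69 to 7.01 CPM) and 0 downward, in other CD3 cells 2 (Gnai3 and Pik3cg) and 0, and in NK cells 0 of 9. The upward shares in CD8 T and other CD3 cells lay near those of all genes. Of 13 measured genes tied to the receptors' expression or to residency in tissue, 3 passed upward in CD8 T cells and 1 downward, again near the shares of all genes. Tbx21, a transcription factor that induces Cxcr3, went from 33.6 to 71.3 CPM (log2 1.09) and Id2 from 768 to 1340 CPM (log2 0.80). S1pr1 went from 4.70 to 8.47 CPM on 14 and 29 UMIs, with an interval that included 0 (log2 0.85, -0.12 to 1.88). Ccr7, the receptor for entry into lymph nodes, went from 113 to 62.5 CPM (log2 -0.85). In other CD3 cells 7 of 14 passed upward and 1 downward. Among them Runx3 went from 50.1 to 101 CPM, and Cd69, which holds T cells in tissue, from 203 to 385 CPM. Klf2, a gene of circulating T cells, also stood higher, at 474 and 1192 CPM, the same direction as Cd69. Ccr7 was lower in other CD3 cells (132 to 64.7 CPM) and NK cells (68.0 to 21.9 CPM) as well, and the dendritic cell list, which contains Ccr7, was lower in the same gates.

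Of the other homing receptors measured in CD8 T cells, 2 of 5 passed upward and 0 downward: Ccr2 went from 44.0 to 97.6 CPM (log2 1.15) and Cx3cr1 from 3.69 to 15.8 CPM (log2 2.10). In other CD3 cells 1 of 4 passed upward, Cxcr4, from 27.7 to 54.6 CPM, and in NK cells 1 of 3, Ccr2, from 271 to 474 CPM. These lists are small, and upward calls made up 16.7%, 17.9% and 23.3% of all tested genes in the 3 gates.

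The genes whose pattern over the 12 points of 6 gates and 2 libraries was most like each member were ranked by Pearson correlation of log2(CPM + 1) among 8715 genes. The points share libraries, gates and depth, so these values are descriptive. Cxcl10 was nearest to Irf7 (0.98), Parp12 (0.97) and Slfn5 (0.96), interferon-induced genes, followed by Tmbim6 and Flt1 (0.96 each). Cxcl9 was nearest to Tcf7l2 and Phf11d (0.96 each), Pnp and Tns3 (0.95 each) and Lst1 (0.94). Cxcl16 was nearest to Marcks and Gatm (0.99 each), Tmem141 and Cpne2 (0.97 each) and Bcl2a1a (0.96). Cxcr3 was nearest to Ppp1r16b, Gimap7, Sytl2 and Sept1 (0.98 each) and Mat2b (0.97). Cxcr6 was nearest to Crbn (0.99), Lat (0.98), Pdcd1, which encodes the checkpoint receptor PD-1, Cd3e, a gate gene, and Actr8 (0.97 each). Between members the values were 0.89 for Cxcl9 with Cxcl10, 0.86 for Cxcl9 with Cxcl16, 0.68 for Cxcl10 with Cxcl16 and 0.83 for Cxcr3 with Cxcr6.

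Genes annotated on the opposite strand overlap 3 of the members, and the use of strand in counting is not given in the sources used here. Art3, which overlaps Cxcl10, had 31 and 8 UMIs against 2821 and 3965 for Cxcl10. Zmynd15 had 191 and 15 against 1988 and 787 for Cxcl16, and Fyco1 had 65 and 76 against 1860 and 3833 for Cxcr6. Reads of such pairs cannot be told apart without strand, and Zmynd15, like Cxcl16, had fewer UMIs in the Nrp1L/L library.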

How the data were processed

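Single cells were profiled by droplet sequencing of 3' ends, 1 library per genotype. The deposited matrices hold whole-number UMI counts per gene and cell, made by the authors with Cell Ranger 1.3 and mm10, per the submitters' processing notes; other upstream settings are not given in the sources used here. The 5 members, gates and gene lists were chosen with earlier results of these data known.

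A filter for cells under 200 genes or above 10% mitochondrial UMIs removed 0 cells. Scrublet, in scanpy 1.11.5, was run with an expected doublet share of 2%, and its calls were used where they made up 0.5 to 10% of cells. That left out 8 control cells (0.611%). For the Nrp1L/L library, where it called 3 (0.231%) and so had not worked, the 26 highest-scoring cells were left out. The libraries were thus cleaned by different rules, and doublets that remained cannot be told apart from genotype. Gates needed at least 2 UMIs of Cd3d, Cd3e and Cd3g for T cells, with 2 of Cd8a and Cd8b1 for CD8 T cells; 2 of Ncr1, Klrb1c and Klre1 with at most 1 CD3 UMI for NK cells; 10 of C1qa, C1qb and C1qc for macrophages; 2 of Cd209a and Flt3 for dendritic cells; and 10 of Lyz2 for monocytes, in that order. Counts were summed per gate and library and given in CPM. Intervals at 95% are exact Poisson (CPM), exact conditional binomial (log2 ratios) and Clopper-Pearson (shares), and cover counting error only. A gene with at least 20 UMIs in a gate over both libraries was called past 1.5-fold. A count of 0 was set to a floor of 3 counts. The calculation was tested on simulated data.

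Named genes are the members, the list genes with at least 20 UMIs in the gate, and for each member the 5 genes with the highest correlation among genes with at least 100 UMIs. The gate genes, Nrp1, Foxp3, Zbtb46 and the genes that overlap members on the other strand are named besides, chosen after their values were seen. Some list genes are counted but not reported by name here. Alternatives were TMM (edgeR 4.0.16) and median-of-ratios (DESeq2 1.42.0) scaling, each cell weighted equally, thinning to 2500 UMIs, other gates and gate orders, kept doublets or mixed cells, cycling cells left out and no minimum of UMIs. Software was Python 3.11.15, numpy 2.4.6, scipy 1.17.1, pandas 2.3.3, matplotlib 3.10.9 and R 4.3.3.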

Additional observations from a re-analysis of the deposited data

Results flagged for a closer look

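Cxcl16 differed between the libraries in opposite directions among the gates, at log2 0.40 in macrophages and 0.51 in monocytes and at -1.59 in CD8 T cells and -3.43 in other CD3 cells. The difference between gates was not tested. The summed dendritic cell marker genes, which include Ccr7, and the macrophage ones were lower in the same Nrp1L/L lymphoid gates. Whether they had a part in the Cxcl16 values was not tested.

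Cells that no comparison used also carried ligands. In mixed cells, 21 in control and 17 in Nrp1L/L cells, Cxcl9 stood at 96.8 and 457 CPM (log2 2.24), Cxcl10 at 376 and 813 CPM (log2 1.11) and Cxcl16 at 55.3 and 448 CPM (log2 3.02). In cells of no gate, 120 and 68, Cxcl9 stood at 11.8 and 229.9 CPM (log2 4.28), with 77 of the 82 Nrp1L/L UMIs in 1 cell, and Cxcl10 at 167 and 389.7 CPM (log2 1.22). The ungated cells differed in kind, with basophil and mast cell marker genes at 37.3 CPM in control and 3521 CPM in Nrp1L/L cells.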

How the results depend on the processing

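The 15 log2 ratios of members in the gates that carry them, each under 11 alternatives, gave 165 values, of which 159 kept their sign and 132 lay inside the main counting interval. Cxcl9 in monocytes ran from 3.47 to 3.91, Cxcl10 in monocytes from 2.12 to 2.43 and Cxcl16 in macrophages from 0.31 to 0.47.

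With each cell weighted equally the log2 ratios were 1.88 (Cxcl10, macrophages), 2.39 (Cxcl10, monocytes), 0.65 (Cxcr3, CD8 T), 0.31 (Cxcr6, other CD3) and -1.33 (Cxcr6, NK), that of Cxcr3 in NK cells was -0.018, and 0 genes of the receptor programme list passed downward in other CD3 cells. Thinned to 2500 UMIs they were 1.92 and 2.43 (Cxcl10, macrophages and monocytes), 0.45 and 0.14 (Cxcr3, CD8 T and other CD3) and 0.77, 0.34 and -1.22 (Cxcr6, CD8 T, other CD3 and NK), and 2 receptor programme genes passed downward in CD8 T cells. Gates on thinned counts gave 2.73 and 4.61 (Cxcl9, macrophages and dendritic gate), 1.06 and 2.14 (Cxcl10, the same), 0.057 (Cxcl16, monocytes) and 0.77 (Cxcr6, CD8 T).

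With the monocyte gate first, Cxcl10 in the dendritic gate turned to -0.60, Cxcl16 there was 0.98 and Cxcl16 in monocytes 0.18; this setting moves Lyz2-rich cells out of the dendritic gate. With gate minimums doubled Cxcl10 was 0.80 (macrophages), 2.26 (monocytes) and 2.52 (dendritic gate). Without cycling cells the ratios were 1.79 (Cxcl9, macrophages), 1.27 (Cxcl10, macrophages), 0.74 (Cxcr3, CD8 T) and 0.78, 0.70 and -1.42 (Cxcr6, CD8 T, other CD3 and NK), and 1 ligand induction gene passed downward in macrophages.

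Without the highest cell of each library, chosen after seeing the data, they were 2.64 (Cxcl9, macrophages), 3.30 and -0.91 (Cxcl10 and Cxcl16, dendritic gate), and Cxcl9 in CD8 T cells turned to 1.80. With mixed cells kept Cxcl16 in other CD3 cells turned to 0.22. With genes of at least 1 UMI, 5 receptor programme genes passed upward and 2 downward in CD8 T cells. Cxcr6 in NK cells, on 33 UMIs, changed sign under gates on thinned counts (0.45), doubled minimums (0.22) and without the highest cell (0.44). Scaling shifted the dendritic gate by -0.14 (TMM) and -0.11 (median of ratios), and other gates by under 0.1. Where not stated, the cause was not tested. No paired analysis was possible because each genotype had 1 library.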
